A study of Mus musculus with 6 samples.

Results

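The genes described here make, bind, remove or sense retinoic acid. They are Aldh1a1, Aldh1a2, Aldh1a3, Dhrs3, Cyp26b1, Crabp1, Crabp2, Rarb and Rxrg, chosen by symbol, and all 9 were found among the 55416 genes of the deposited count table. Total RNA was sequenced from the ganglionic eminences, the ventral swellings of the embryonic forebrain, of mice at embryonic day E13.5. The groups were 3 libraries from Dlx1/Dlx2 double knockout embryos and 3 from wild-type littermates, with the same tissue, age and protocol in both. DLX1 and DLX2 are homeodomain transcription factors of GABAergic neuron precursors, and the comparison asked what changes when both are missing. The strain, the knockout alleles and whether a library is 1 embryo or a pool are not given in the sources used here, so p-values measure the spread between these libraries, which may be partly technical.

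Retinoic acid is a small lipid signal made from vitamin A. Retinol is oxidised to retinaldehyde, which the ALDH1A dehydrogenases convert to retinoic acid. CRABP proteins bind it in the cytoplasm, CYP26 enzymes break it down, and in the nucleus it acts through heterodimers of retinoic acid receptors (RAR) and retinoid X receptors (RXR). In the developing ventral forebrain ALDH1A3 is known as a local source of retinoic acid, and RARB and RXRG are receptors of the developing striatum.

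Total counts were between 56618090 and 70114173 per library. Reads of the targeted genes were reduced in all 3 double knockout libraries, with Dlx1 at 18.6% and Dlx2 at 2.94% of their wild-type means. All 12 ganglionic eminence markers examined were detected in every library. Of 23628 tested genes, 634 (2.68%) were called different by the quasi-likelihood test of edgeR at a Benjamini-Hochberg adjusted p under 0.05, with 1.34% of all tested genes in each direction. A pair of libraries stood apart in other genes. Double knockout replicate 3 differed most from the other libraries of its group, with a chi-square statistic per gene of 36.5 and 30.0 against 13.2 between the other two. Wild-type replicate 1 held 1540 reads of Ttr, a choroid plexus gene, against 0 to 10 in each of the other libraries. Y-linked genes were expressed in wild-type replicate 1 and double knockout replicates 2 and 3, and the other libraries expressed Xist. Both patterns thus occurred in each group, but they were not balanced between the groups.

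Of the 7 genes that could be tested, 4 were called lower in the double knockout by edgeR and by DESeq2, and 0 were called higher by either or had a higher level at an unadjusted edgeR p under 0.05. Aldh1a3, Crabp1, Rarb and Rxrg were called lower, against a background of 1.34% of tested genes called lower. These genes and the lists used below were chosen with earlier results of these data known. Their shares of calls are therefore descriptions and not a test against the background. Cyp26b1 was at 30.8% of its wild-type mean but did not pass the threshold. Crabp2 and Dhrs3 overlapped between groups. Aldh1a1 and Aldh1a2 had too few reads to pass the filter on low counts and were not tested, although Aldh1a1 was higher in all 3 double knockout libraries than in the wild type. The median log2 fold change of the tested genes was -1.73, beside -0.0016 over all tested genes. The wild-type and double knockout libraries did not overlap for 5 of the 7, beside 19.5% of all tested genes. These are bulk samples, in which fewer cells of a type and less RNA per cell cannot be told apart. The same 4 genes were called under each of the 14 alternative settings tried, in 3 of which Cyp26b1 was called as well.

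**Figure D1:**
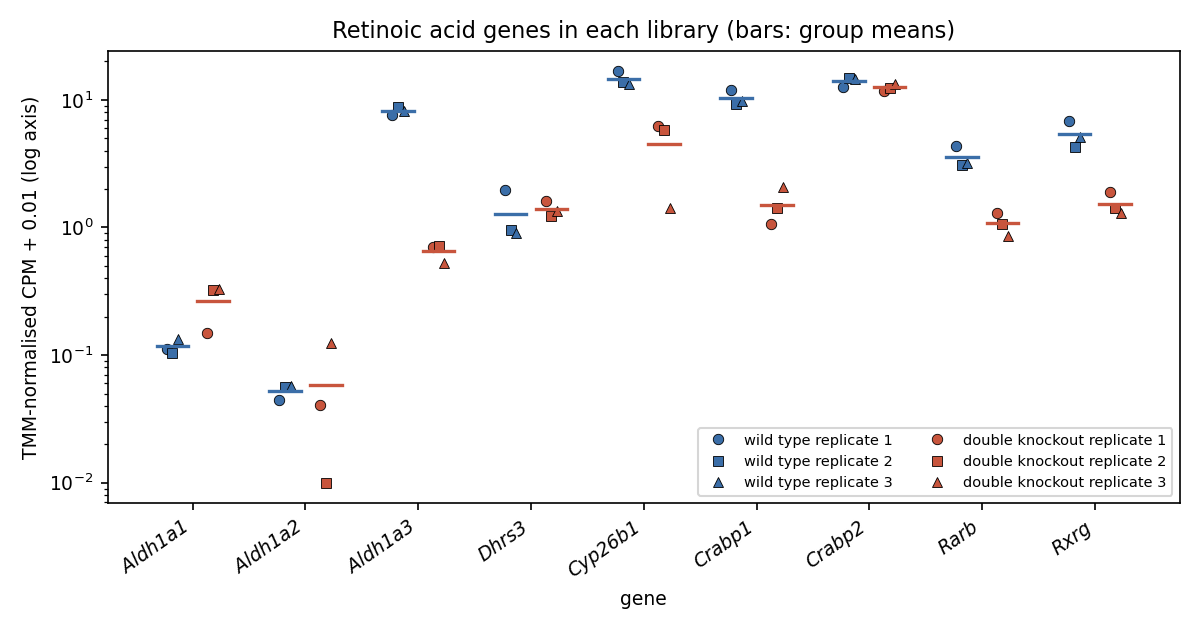
Level of each gene in each library, as TMM-normalised CPM plus 0.01 on a log axis, with blue for the wild type, red for the double knockout, a symbol for each replicate and short bars for group means. Aldh1a3 lies between 7.58 and 8.70 CPM in wild-type libraries and between 0.519 and 0.711 CPM in the double knockout, whereas Crabp2 overlaps between groups.

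The synthesis enzymes were examined first. Aldh1a3 (ENSMUSG00000015134), the retinaldehyde dehydrogenase gene of the ventral forebrain, had 444, 559 and 527 reads in the wild-type libraries and 45, 41 and 36 in the double knockout. In CPM, the count relative to library size after TMM scaling (trimmed mean of M values), these were 7.58, 8.70 and 8.22 against 0.693, 0.711 and 0.519. Every double knockout library was thus far below every wild-type library, and the spread within each group was small. The means were 8.16 ± 0.562 CPM (SD, n = 3) and 0.641 ± 0.106 CPM (SD, n = 3), which leaves 7.85% of the wild-type level. The fitted log2 fold change was -3.67 (SE 0.158; edgeR adjusted p 1.01e-05). Among 297 called decreases averaging 1 CPM or more, the decrease of Aldh1a3 ranked 6 by log2 fold change. It ranged from -3.75 to -3.53 when each library was left out in turn, and was called each time.

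Aldh1a1 and Aldh1a2, which encode the other retinaldehyde dehydrogenases of this family, were near the limit of detection. Aldh1a1 had 6, 6 and 8 reads in the wild type and 9, 18 and 22 in the double knockout. All 3 double knockout libraries were above the wild-type ones, at 0.256 ± 0.102 CPM against 0.107 ± 0.0161 CPM (SD, n = 3). Without the filter on low counts its log2 fold change was 1.25 (SE 0.530; edgeR adjusted p 0.401), so this difference did not pass the test. Aldh1a2 had 2, 3 and 3 reads in the wild type and 2, 0 and 8 in the double knockout. These values are at or close to the floor of 3 counts, and no fold is given. Aldh1a2 is also a gene of the meninges, and the 11 meningeal and fibroblast markers gave summed levels of 28.6 to 44.0 CPM in wild-type libraries and 32.3 to 33.2 CPM in the double knockout. None of the 10 tested markers was called.

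Levels of different genes were compared per length, as RPKM (CPM divided by exon length in kilobases). Summed over the 3 Aldh1a genes, the level was 1.68, 1.92 and 1.83 RPKM in the wild type and 0.192, 0.217 and 0.228 RPKM in the double knockout, a log2 ratio of means of -3.09. Aldh1a3 supplied 97.8% ± 0.246 (SD, n = 3) of this sum in the wild type and 66.2% ± 15.0 (SD, n = 3) in the double knockout. In the double knockout libraries that share was 78.3%, 70.9% and 49.4%. The share of Aldh1a2 in the same libraries was 7.09%, 0% and 22.4%, which rests on 2, 0 and 8 reads. The share of Aldh1a1 was 1.20% ± 0.203 in the wild type and 24.0% ± 8.11 in the double knockout. Aldh1a3 therefore remained the most abundant of the 3 transcripts in each library, although double knockout replicate 3 had 36 reads of it beside 22 of Aldh1a1. The exact two-sided permutation p was 0.10 for the sum and for the shares of Aldh1a3 and Aldh1a1, the smallest that 3 against 3 libraries allow. Over the 15 such tests on 4 families the Benjamini-Hochberg adjusted value was 0.136 for each of these.

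**Figure D2:**
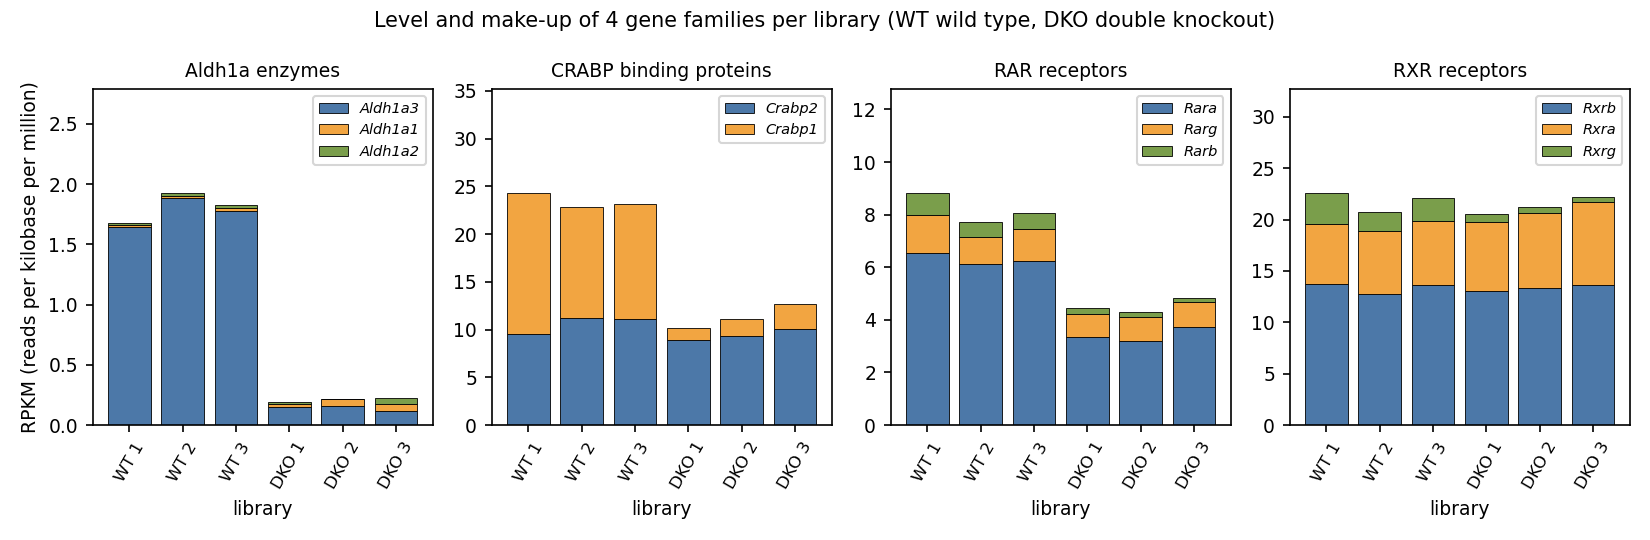
RPKM of the Aldh1a, CRABP, RAR and RXR genes stacked in each library, with wild-type replicates on the left and double knockout replicates on the right of each panel. The summed Aldh1a and CRABP levels do not overlap between groups, whereas the summed RXR level lies between 20.6 and 22.6 RPKM in all 6 libraries.

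Removal of the substrate and of retinoic acid itself was represented by Dhrs3 and Cyp26b1. Dhrs3 (ENSMUSG00000066026) encodes a reductase that turns retinaldehyde back into retinol. It was at 1.95, 0.949 and 0.889 CPM in wild-type libraries and 1.59, 1.21 and 1.34 CPM in the double knockout. Wild-type replicate 1 was the highest of all and the other wild-type libraries were the lowest, so the groups overlapped. The log2 fold change was 0.14 (SE 0.309; edgeR adjusted p 0.914). Without wild-type replicate 1 it was 0.59, with an edgeR adjusted p of 0.423. That library also held the Ttr reads given above. The 6 choroid plexus markers summed to between 2.03 and 32.4 CPM over the wild-type libraries and between 1.82 and 3.17 CPM over the double knockout, and their part in the value of Dhrs3 was not tested.

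Cyp26b1 (ENSMUSG00000063415) encodes the cytochrome P450 that inactivates retinoic acid. It was at 16.7, 13.8 and 13.2 CPM in wild-type libraries and 6.27, 5.78 and 1.40 CPM in the double knockout. The groups did not overlap, and double knockout replicate 3 was far below the other two, with 97 reads against 407 and 333. The log2 fold change was -1.71 (SE 0.433; edgeR adjusted p 0.0935). Without double knockout replicate 3 the log2 fold change was -1.27 (SE 0.129) and the edgeR adjusted p 0.00131. With each of the other libraries left out, the fold change was between -2.04 and -1.60 and was not called. Cyp26a1 and Cyp26c1, which encode the related enzymes, had 0 to 6 reads in each library and were not tested. In the double knockout Cyp26b1 was thus the most variable of the 7 tested genes relative to its mean, with an SD of 2.68 CPM around a mean of 4.48 CPM.

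The binding proteins differed from each other. Crabp1 (ENSMUSG00000032291) had 693, 599 and 622 reads in the wild type and 68, 81 and 142 in the double knockout, or 11.8, 9.32 and 9.70 CPM against 1.05, 1.41 and 2.05 CPM. The groups did not overlap, and double knockout replicate 3 was the highest of its group. The means were 10.3 ± 1.35 and 1.50 ± 0.506 CPM (SD, n = 3), a fall to 14.6%. The fitted log2 fold change was -2.77 (SE 0.227; edgeR adjusted p 0.000455). With each library left out in turn it ranged from -3.06, without double knockout replicate 3, to -2.57, and the highest adjusted p of these edgeR fits was 0.00399.

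Crabp2 (ENSMUSG00000004885) encodes the CRABP that carries retinoic acid to nuclear receptors. It was at 12.6, 14.8 and 14.6 CPM in wild-type libraries and 11.7, 12.4 and 13.4 CPM in the double knockout. The groups overlapped, and the log2 fold change of -0.17 (SE 0.0956) did not pass the test, with an adjusted p of 0.542 in edgeR. Per length, Crabp1 made up 54.7% ± 5.32 (SD, n = 3) of the summed CRABP level in the wild type and 16.3% ± 3.70 (SD, n = 3) in the double knockout. The sum was 23.4 ± 0.773 RPKM in the wild type and 11.3 ± 1.25 RPKM in the double knockout. Per length, Crabp1 was the more abundant of the pair in each wild-type library, with shares of 60.8%, 51.0% and 52.2%. In reads and in CPM, however, Crabp2 was the higher in each wild-type library. The wild-type order thus rests on the exon lengths used, 802 bases for Crabp1 and 1322 for Crabp2. In each double knockout library Crabp2 was the higher on every scale. The exact permutation p was 0.10 for the sum and the share, the smallest possible, and 0.136 after adjustment.

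The receptor genes Rarb and Rxrg fell together. Rarb (ENSMUSG00000017491), which encodes retinoic acid receptor beta, was at 4.34, 3.07 and 3.21 CPM in wild-type libraries and 1.29, 1.06 and 0.851 CPM in the double knockout. The groups did not overlap, and the log2 fold change was -1.73 (SE 0.213; edgeR adjusted p 0.00366). Exons of Rarb overlap those of Top2b and Gm48162 on the opposite strand in GENCODE M21. Top2b was at 906.3 CPM in wild-type libraries and had a log2 fold change of -0.25 with an edgeR adjusted p of 0.0503. The kit marks strand, but the counting setting is not given in the sources used here, so the count of Rarb is uncertain. No exon overlap was found for the other 8 genes.

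Rxrg (ENSMUSG00000015843), which encodes retinoid X receptor gamma, was at 6.83, 4.25 and 5.08 CPM in wild-type libraries and 1.88, 1.42 and 1.28 CPM in the double knockout. The log2 fold change was -1.81 (SE 0.219; edgeR adjusted p 0.00333), and the groups did not overlap. Wild-type replicate 1 was the highest library for both receptors. Without it the log2 fold changes were -1.56 for Rarb and -1.61 for Rxrg, with edgeR adjusted p of 0.0149 and 0.0105. Both were called in each fit that left out a library, with adjusted p of at most 0.0184 in edgeR.

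The other receptor genes were followed for comparison. Rara, the receptor gene with the highest RAR level per length, fell from 27.6 ± 0.959 to 15.0 ± 1.16 CPM (SD, n = 3), with a log2 fold change of -0.88 (SE 0.0795; edgeR adjusted p 0.000821). Rarg had a log2 fold change of -0.43 and Rxra one of 0.27, with edgeR adjusted p of 0.240 and 0.137. DESeq2 called Rxra higher, at 0.28 with an adjusted p of 0.0432. Rxrb averaged 53.3 ± 2.15 CPM in wild-type libraries and 53.2 ± 1.13 CPM in the double knockout (edgeR adjusted p 0.993). The RAR genes together were at 8.20 ± 0.560 RPKM in the wild type and 4.53 ± 0.282 RPKM in the double knockout. Rarb made up 8.15% ± 1.03 of that sum in the wild type and 4.51% ± 1.10 in the double knockout. The RXR sum was 21.8 ± 0.945 RPKM in the wild type and 21.4 ± 0.849 RPKM in the double knockout, with overlapping groups and an exact permutation p of 0.6. Within it, Rxrg made up 10.7% ± 2.21 in the wild type and 3.14% ± 0.759 in the double knockout, without overlap. The exact permutation p of both shares and of the RAR sum was 0.10, the smallest possible.

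Because Rarb and Rxrg moved together, the bases upstream of their annotated starts are shown for the nuclear receptor motif. They are RefSeq sequences of the build GRCm38.p6, 5′ to 3′ on the strand of the gene (minus for Rarb, plus for Rxrg), and end at the base before the start. The submitters' processing notes name another build, GRCm39, and the counts themselves carry no coordinates. Capitals mark any of 4 receptor hexamers on either strand, and in Rarb also the 5 bases between a pair of them. The hexamer AGGTCA occurred in 16.3% of all 32851 promoter windows of this kind. The variant AGTTCA occurred in 14% of windows. The variant GGGTCA occurred in 13.7% and the variant GGTTCA in 10.4%, so single matches are common.
Rarb, upstream window at chr14:16575477-16575726: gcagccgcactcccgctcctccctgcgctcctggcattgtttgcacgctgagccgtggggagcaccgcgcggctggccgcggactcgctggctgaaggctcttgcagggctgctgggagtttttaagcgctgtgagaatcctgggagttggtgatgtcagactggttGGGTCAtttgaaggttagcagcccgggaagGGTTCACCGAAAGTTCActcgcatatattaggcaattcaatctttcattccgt
Rxrg, upstream window at chr1:167598112-167598361: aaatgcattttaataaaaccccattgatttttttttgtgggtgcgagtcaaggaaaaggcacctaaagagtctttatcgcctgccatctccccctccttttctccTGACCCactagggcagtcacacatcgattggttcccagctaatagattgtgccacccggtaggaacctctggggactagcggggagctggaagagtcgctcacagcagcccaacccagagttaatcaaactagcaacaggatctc
Rxrg, upstream window at chr1:167618015-167618264: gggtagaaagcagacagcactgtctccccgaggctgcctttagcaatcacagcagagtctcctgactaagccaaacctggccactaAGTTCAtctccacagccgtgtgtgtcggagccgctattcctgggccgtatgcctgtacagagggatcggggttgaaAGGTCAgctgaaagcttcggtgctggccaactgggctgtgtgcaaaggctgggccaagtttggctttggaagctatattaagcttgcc
A direct repeat of these hexamers spaced by 5 bases, named DR5, is the textbook retinoic acid response element, and that of the Rarb promoter is a classic example. The Rarb window held 1 such repeat, GGTTCACCGAAAGTTCA, from position -53 to -37 counted from the start. It was the only DR5 match in the 11 windows, each of 300 bases, that were given for 7 of the 9 genes. Aldh1a3 and Crabp2 had no window. Of all 32851 windows of the same length, 0.0974% held a DR5 match on either strand, a count in which the repeats overlap the single hexamers. Direct repeats with a spacing of 1 or 2 bases were found in 0 of the 11 windows and in 0.222% and 0.268% of all windows. The homeodomain motif TAATTA was in 0 of the 11 windows and in 5.29% of all windows. For the motif TAATTG these were 0 of the 11 and 8%. These matches are descriptions of letters in these windows only.

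Ordered by level per length, Crabp1 and Crabp2 led in the wild type at 12.8 ± 1.69 and 10.6 ± 0.921 RPKM (SD, n = 3). They were followed by Cyp26b1 at 2.72 ± 0.351, Rxrg at 2.34 ± 0.573 and Aldh1a3 at 1.77 ± 0.122 RPKM. Libraries of Cyp26b1 and Rxrg overlapped, as did those of Rxrg and Aldh1a3. Rarb and Dhrs3 overlapped as well, at 0.672 ± 0.132 and 0.431 ± 0.203 RPKM, and Aldh1a1 and Aldh1a2 were lowest, at 0.0216 and 0.0188 RPKM. In the double knockout Crabp2 led at 9.44 ± 0.614 RPKM, with Crabp1 next at 1.87 ± 0.632 RPKM. Aldh1a3 dropped from rank 5 to rank 7, at 0.139 ± 0.0230 RPKM, below Dhrs3 and Rarb and with no overlap with either.

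The rest of the pathway was described with lists of 57 other genes, of which 40 were tested. Of these, edgeR called 6 lower and 1 higher, beside the background of 1.34% in each direction. The median log2 fold change of the 40 was -0.045. Among 9 tested genes for the interconversion of retinol and retinaldehyde none was called by edgeR or by DESeq2. Rdh10, which encodes the main embryonic retinol dehydrogenase, averaged 6.43 ± 0.791 CPM in wild-type libraries and 5.98 ± 0.380 CPM in the double knockout (edgeR adjusted p 0.819). No gene of this list had an unadjusted p under 0.05.

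Of 6 tested uptake and storage genes, edgeR called Stra6l lower. It encodes a membrane protein related to the retinol transporter STRA6. It had 360, 273 and 359 reads in the wild type and 163, 126 and 112 in the double knockout, with a log2 fold change of -1.34 (SE 0.202; edgeR adjusted p 0.0103). Another gene of this list, at an edgeR adjusted p of 0.0739, was called lower by DESeq2. The summed level of the list was 105.5 to 120.4 CPM in wild-type libraries and 79.5 to 99.0 CPM in the double knockout.

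Of 9 tested genes reported to respond to retinoic acid, 4 were lower in edgeR, beside 1.34% of all tested genes, and the median log2 fold change of the 9 was -0.04. The log2 fold changes of the other 5 were between -0.04 and 0.69, with 4 of them above 0, and none of the 5 was called in edgeR. At an unadjusted edgeR p under 0.05 there was 1, which DESeq2 called higher. Zfp503, a transcriptional repressor gene of the developing striatum, had a log2 fold change of -1.66 (SE 0.0816) and was called in every setting. Drd2, the D2 dopamine receptor gene, was at 3.12 ± 0.0861 and 1.42 ± 0.299 CPM, and lost significance when any 1 wild-type replicate was left out, with edgeR adjusted p reaching 0.0611. The homeodomain genes Meis1 and Meis2 had log2 fold changes of -0.49 and -0.45, with edgeR adjusted p of 0.0322 and 0.00895. Meis1 lost significance in 6 of the 14 settings, with edgeR adjusted p reaching 0.120 without wild-type replicate 2. Meis2 was at an adjusted p of 0.0502 without double knockout replicate 2. Other genes overlap Meis1 on both strands, so its count is uncertain. Hoxb1 had 0 reads in all libraries, and Stra8 and Cdx1 had at most 3.

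**Figure D3:**
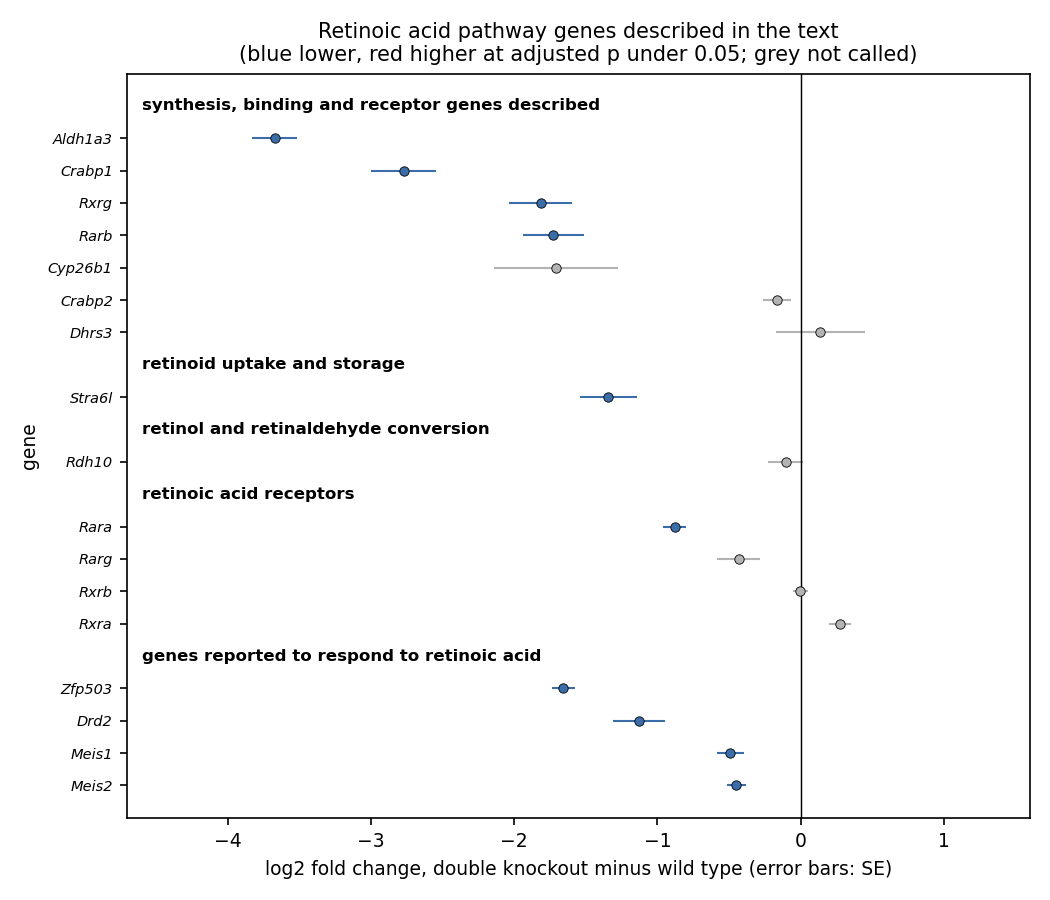
Log2 fold change (double knockout minus wild type) with its SE for the 7 tested genes described here and for the 10 tested genes of the pathway lists that the text names, in blue where called lower and grey where not called. Aldh1a3 and Crabp1 lie at -3.67 and -2.77, and each of the called pathway genes shown lies closer to 0 than Rxrg at -1.81.

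Genes with the most similar pattern were sought among the 16486 genes averaging 1 CPM or more, by the root mean square difference of centred log2 CPM over the 6 libraries. Nearest to Aldh1a3 were Cntnap3 at 0.304, Dlx5 at 0.390 and Slc32a1 at 0.422. Dlx5 encodes another DLX factor and Slc32a1 the vesicular GABA transporter. The log2 fold changes of Cntnap3, Dlx5 and Slc32a1 were -3.25, -2.93 and -2.85. Each estimate was smaller in size than that of Aldh1a3, a difference between genes that was not tested. The same measure was taken for other genes of the set after their values had been seen. Nearest to Rarb were Tac1 at 0.0653 and Rxrg at 0.0886. Tac1 encodes the precursor of substance P and marks striatal projection neurons. Rarb was in turn the nearest gene to Rxrg, followed by Tac1 at 0.0998 and Maf at 0.145. Nearest to Crabp1 were Dlx1, Neb and Sowaha, at 0.289, 0.317 and 0.320. For Cyp26b1 the nearest were Egr3 at 0.355, Gm48261 at 0.361 and Gda at 0.379. Each of these was lowest in double knockout replicate 3, as Cyp26b1 was, a likeness for which they had been picked. None was called in edgeR, with adjusted p from 0.0787 to 0.190.

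**Figure D4:**
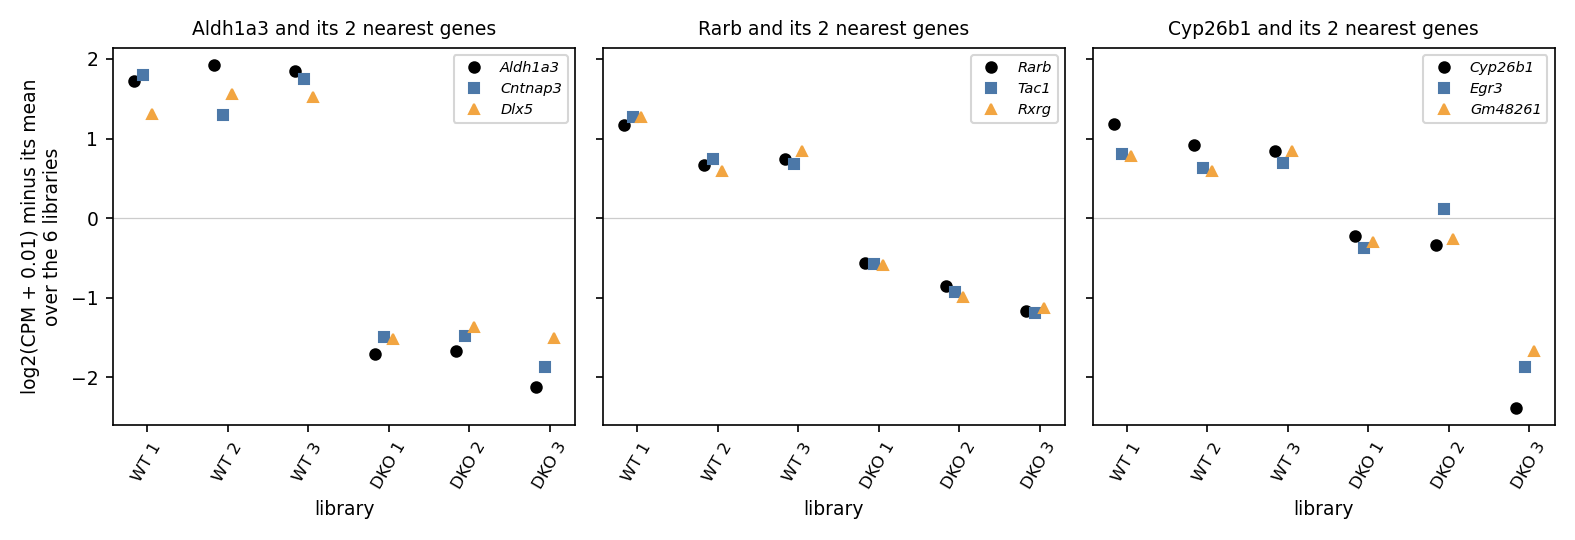
Log2(CPM + 0.01) of Aldh1a3, Rarb and Cyp26b1 and of the 2 genes nearest to each, centred on the mean over the 6 libraries, with WT for the wild type and DKO for the double knockout. The neighbours were picked for their likeness over these same libraries. Rarb, Tac1 and Rxrg are highest in wild-type replicate 1, and Cyp26b1 and its neighbours are lowest in double knockout replicate 3.

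Summed levels of cell type markers were lower, higher or overlapping between groups, depending on the list. Beside the counts that follow, edgeR called 1.34% of all tested genes in each direction. Of 12 striatal projection neuron markers, 8 were lower and 1 was higher in edgeR, with a median log2 fold change of -0.78. Their summed level was 1188 to 1249 CPM in wild-type libraries and 788.2 to 897.9 CPM in the double knockout. The 12 ganglionic eminence markers include the targeted genes. Of the 10 others, 4 were lower and 3 were higher, with a median log2 fold change of 0.04, and their sum was 1412 to 1492 CPM against 1135 to 1314 CPM. Of 8 markers of the medial eminence and interneurons, 5 were lower and 1 was higher. Cortical excitatory markers summed to 982.9 to 1005 CPM against 788.4 to 812.9 CPM, with 1 of 9 called lower. Hypothalamic and diencephalic markers summed to 13.9 to 26.6 CPM in wild-type libraries and 137.9 to 157.6 CPM in the double knockout, with 3 of 8 tested called higher. Otp, a hypothalamic homeodomain gene, averaged 9.44 and 118.4 CPM and made up most of the double knockout sum. Hmx2 and Hmx3 were called higher too, whereas Sim1, Nkx2-2, Foxb1, Irx1 and Irx3 were not called. Sim1 overlapped between groups, at 20.7, 16.9 and 2.96 CPM in the double knockout and 3.95 to 11.8 CPM in wild-type libraries. Nkx2-4 and Rax had at most 3 reads in any library. The part of these markers in the results was not tested. Of the markers of the eye, where Aldh1a1 and Aldh1a3 are also expressed, Crx, Tyr and Cryaa were at 0 reads in all 6 libraries. The summed levels of vessel, microglial, blood, choroid plexus and eye markers overlapped between groups, and none of their tested genes was called.

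**Figure D5:**
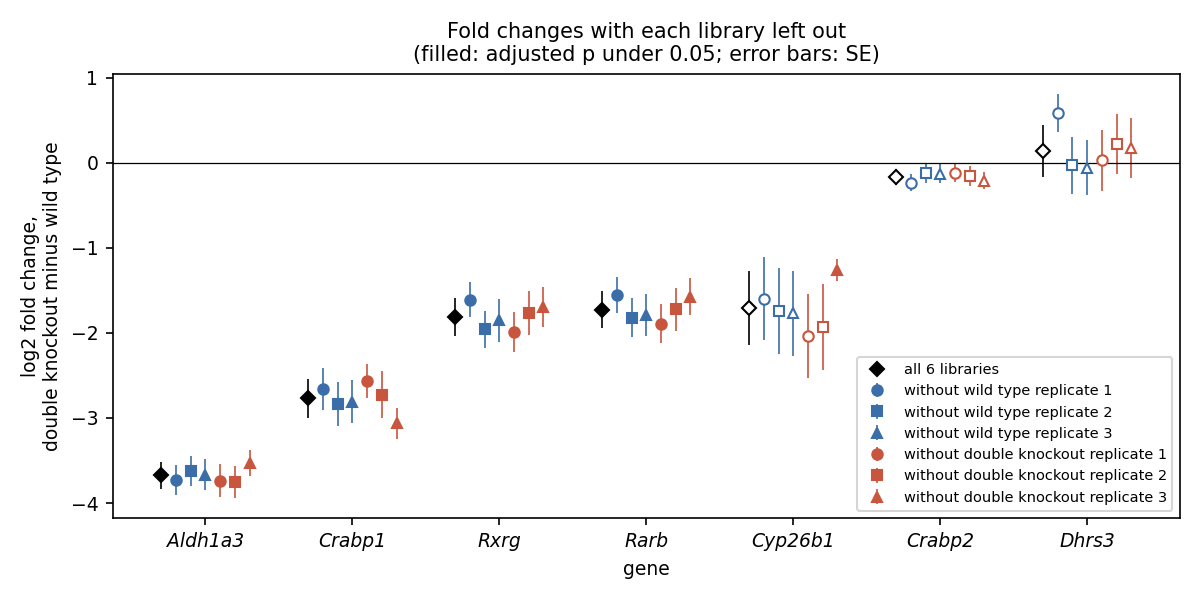
Log2 fold change with SE of the 7 tested genes from all 6 libraries (black) and with each library left out (blue for wild type, red for double knockout), filled where the edgeR adjusted p was under 0.05. Aldh1a3, Crabp1, Rxrg and Rarb are filled throughout, and Cyp26b1 is filled only without double knockout replicate 3.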

How the data were processed

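The authors deposited unnormalised counts of reads, as whole numbers, for each gene and library. Per the submitters' processing notes these were made with featureCounts on the build GRCm39. The aligner, annotation release, program version and strand setting are not given in the sources used here. Per the labels' protocols, ribosomal RNA was removed and the library kit marks strand. A count of 3 corresponded to 0.0428 to 0.053 CPM, which covers counting error only.

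Genes were filtered with filterByExpr (minimum count 10, minimum total 15), scaled by TMM and tested with edgeR 4.0.16 in R 4.3.3, with a prior count of 0.125 and Benjamini-Hochberg adjustment over all tested genes. A gene was called at an adjusted p under 0.05. SE is the coefficient divided by the square root of F. RPKM used exon lengths from GENCODE M21 (GRCm38), which held 94.1% of the identifiers. Family sums and shares were compared with exact two-sided permutation tests. Alternatives were DESeq2 1.42.0, limma-voom (limma 3.58.1), other scalings and filters, a replicate block, a covariate from Y-linked counts and leaving out each library. The tests were checked on simulated data.

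The genes, the lists and the tests were chosen with earlier results of these data known. Named were the 9 genes, Dlx1 and Dlx2, the called pathway genes, the other receptors, Rdh10 and the 3 genes nearest in pattern to the member with the largest called decrease, Aldh1a3 (none was called higher). Stra8, Cdx1, Hoxb1, Cyp26a1, Cyp26c1, Top2b and the genes nearest to other members of the set were named after their values were seen. So were Otp and the other hypothalamic and diencephalic markers. Some genes that the rule names are not reported here. Promoter sequences are from RefSeq.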

Additional observations from a re-analysis of the deposited data

How the results depend on the processing

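The calls of Aldh1a3, Crabp1, Rarb and Rxrg and the directions of Crabp2 and Cyp26b1 did not change in 14 alternative settings. Cyp26b1 was called lower with no filter on low counts (log2 fold change -1.70, edgeR adjusted p 0.00732) and without double knockout replicate 3 (-1.27). It was not called in the other fits without a library, which reached -2.04. With the replicate block Cyp26b1 was at -1.89 (edgeR adjusted p 0.0405), Aldh1a3 at -3.67 and Crabp1 at -2.80, and 690 genes were called in place of 634. The labels do not say that numbers mark litters. Deviations of same-numbered libraries correlated at 0.186, 0.0600 and 0.0884 over all tested genes. Correlations of differently numbered libraries were between -0.176 and 0.0819, the highest for wild-type replicate 2 with double knockout replicate 3. The main test was unpaired, and whether the numbers mark pairs was not tested. The number of called genes was 1162 in DESeq2, 360 with the Y-linked covariate and 309 to 749 without a library. Total count scaling called 646 genes, 60.4% of them higher against 50% with TMM. Pathway genes called higher numbered 3 in DESeq2, 0 with the Y-linked covariate and 0 to 1 without a library. Dhrs3 turned to -0.0309 and -0.0581 without wild-type replicate 2 or 3, and was 0.59 without replicate 1. Rxrb turned positive in 8 settings: 0.0019 with DESeq2 size factors, 0.0256 with total counts, 0.0020 in DESeq2, 0.0076 with no filter, 0.0087 with a filter at 1 CPM and between -0.0360 and 0.0161 over the fits without a library, 3 of which were positive. In CPM without division by length, the summed RXR level differed by 0.045 on the log2 scale and the share of Rxrb by -1.83 percentage points, both of opposite sign to RPKM. For all of these the cause was not tested. Aldh1a1 and Aldh1a2 had 0 to 22 reads per library, and with no filter on low counts their edgeR adjusted p were 0.401 and 0.966.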
